A study of Homo sapiens with 58 samples.

Results

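AP-1 is a transcription factor built as a pair of subunits, and the 8 genes described here encode such subunits: the FOS members FOS, FOSB, FOSL1 and FOSL2, the JUN members JUN, JUNB and JUND, and BATF3. They were chosen by name, with earlier results of these data known, from 19775 genes measured on 58 Affymetrix U133 Plus 2.0 arrays. Counts of them beside the share of all genes are therefore descriptions. All 8 were measured, by 18 probe sets that each carry 1 gene symbol, and the brightest of a gene's probe sets, by its mean on all arrays, stands for the gene. HaCaT, a spontaneously immortalized line of human keratinocytes, was used as such and as derived lines with forced expression: the mutant HRAS-VAL12D in HaCaT-HRAS, RELA/p65 in HaCaT-p65, EGFR in HaCaT-EGFR and an empty vector, labelled mock, in HaCaT-vector. All lines share the HaCaT background, which is monoclonal, aneuploid and carries mutant p53, and the labels do not say whether a derived line is 1 clone. The serum condition has 5 arrays of HaCaT-EGFR and 3 for every other line. Starved cells, kept without serum, gave 3 arrays in HaCaT-p65, 4 in HaCaT-vector and 7 in HaCaT-EGFR. EGF, the ligand of EGFR, was given without serum to HaCaT-EGFR (5 arrays at 4 h, 2 at 8 h) and HaCaT-vector (4 arrays at 4 h). TNF, a cytokine that activates NF-κB, was given to HaCaT-p65 (4 arrays at 4 h, 1 at 8 h) and HaCaT-vector (3 arrays at 4 h). Inhibitors were on 8 arrays. Gefitinib, which blocks the EGFR kinase, was given to HaCaT-EGFR with EGF (2 arrays) and in serum (2 arrays), and LY294002, an inhibitor of PI3K, and U1026, labelled as such and used as an inhibitor of MEK, were each given with EGF to HaCaT-EGFR and HaCaT-vector (1 array each at 4 h).

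FOS and JUN proteins pair through a leucine zipper and bind the sequence TGANTCA. JUN proteins can pair among themselves, whereas FOS proteins need a JUN partner, and FOSL1 and FOSL2 lack the strong activation domain of FOS and FOSB. Growth factors act through RAS, RAF, MEK and ERK on the transcription of these genes: FOS, FOSB and JUNB are immediate early genes whose RNA rises and falls within hours, and FOSL1 is a later gene that ERK signaling and AP-1 itself sustain. In keratinocytes AP-1 controls genes of differentiation, of matrix breakdown and of inflammation.

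The values are log2 expression after the study's removal of a date effect, and a change is a difference of such values with its standard error (SE) from 1 limma fit of 18 conditions and 6 processing dates. A change was called where its p-value, adjusted by Benjamini-Hochberg over all 19775 genes, was under 0.05. The sources do not say that replicates are separate cultures, so the p-values measure the spread between these arrays, which may be technical. The dates decide which comparisons are direct. All serum arrays of 0 h lie on date 1 and the inhibitor arrays on date 6, and only the 2 serum arrays of HaCaT-EGFR at 4 h and 8 h link date 1 to the other dates. For each gene the date correction thus set the mean of the HaCaT-EGFR serum arrays of 0 h equal to that of these 2. In HaCaT-HRAS the introduced HRAS was higher than in HaCaT-vector by 2.41 (SE 0.09), whereas EGFR (-0.02) in HaCaT-EGFR and RELA (0.27) in HaCaT-p65 did not pass on the brightest probe set. The basal keratins KRT5 and KRT14 ranged from 10.84 to 13.13 and from 10.72 to 13.45 over the arrays, and of 5 leukocyte markers PTPRC, CD3E and CD14 reached 4.48, 4.61 and 4.96 at most, below the lowest array median of 4.98, whereas LYZ reached 6.53 and CD79A 5.78. A HaCaT-p65 array labelled TNF, 4 h replicate 3, is described as a control in the study's sample sheet, and the changes with TNF in HaCaT-p65 are given with it and, where stated, without it.

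RefSeq promoter sequences (GRCh38.p14) were at hand for FOS, FOSB, FOSL2, JUN, JUNB and JUND, each with 250 bases before the transcription start. FOS, FOSB and JUNB are shown because each held the TATA box TATAAA on the promoter strand, at -33 to -28 in FOS, -30 to -25 in FOSB and -31 to -26 in JUNB relative to the start, as did 6.8% of 35116 promoters. JUN and JUND are shown for sites of the kind that AP-1 and CREB proteins bind: TGACATCA at -67 to -60 in JUN (2.37% of all promoters, both strands searched) and TGACGTCA at -200 to -193 in JUND (1.65%). The palindromic AP-1 letters TGANTCA (6.57%) and the CArG box of serum response factor (1.16%), both searched on both strands, were not found in these 6 windows, and FOSL2, which also fell with EGF in HaCaT-EGFR, held none of the motifs searched. No match overlapped another. Each sequence below is 30 bases in the direction of transcription, with the motif in capitals.

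FOS, chr14:75278783-75278812, plus strand: taaaacgcttgtTATAAAagcagtggctgc
FOSB, chr19:45467954-45467983, plus strand: gggtcccgggcaTATAAAtacaggctggcg
JUNB, chr19:12791443-12791472, plus strand: tgactagcgcggTATAAAggcgtgtggctc
JUN, chr1:58784096-58784125, minus strand: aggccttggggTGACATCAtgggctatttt
JUND, chr19:18281804-18281833, minus strand: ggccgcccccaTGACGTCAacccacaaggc

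With EGF in HaCaT-EGFR, the FOS family split. FOSL1 rose 2.70-fold, while FOS fell 1.83-fold, FOSB 1.60-fold and FOSL2 1.71-fold, and JUNB fell 1.23-fold. In these bulk samples fewer cells with a transcript and less transcript per cell cannot be told apart. FOSL1, the FOS-related subunit sustained by ERK signaling, ranged from 6.64 to 8.37 (median 7.41) over the 7 starved arrays and from 8.82 to 9.37 (median 8.96) over the 7 arrays with EGF. Every array with EGF was above every starved array, and the starved arrays were the more scattered. The change was 1.43 (SE 0.20, adjusted p = 7.93e-06, limma), and within dates 2, 3 and 6 it was 1.62, 1.65 and 1.16.

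FOS itself, the prototype immediate early subunit, lay between 6.39 and 7.54 (median 7.18) on the starved HaCaT-EGFR arrays and between 5.57 and 6.78 (median 6.32) with EGF. These ranges overlapped, but the change of -0.87 (SE 0.23, adjusted p = 0.0127, limma) had the same direction within dates 2, 3 and 6, at -0.87, -0.75 and -0.95. FOSB, the other subunit with a strong activation domain, went from a range of 8.64 to 9.69 (median 9.13) to one of 8.11 to 8.87 (median 8.37), a change of -0.68 (SE 0.19, adjusted p = 0.016, limma). FOSL2 went from 10.03 to 11.56 (median 11.06) to 9.81 to 10.40 (median 9.96), a change of -0.77 (SE 0.17, adjusted p = 0.00217, limma). The direction of FOSL2 was opposite to that of the related FOSL1. Both of the 2 brightest FOSL2 probe sets gave the same size, -0.77 and -0.76, and the other 3 gave -0.62, -0.30 and -0.26 and did not pass among all probe sets.

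Among the JUN members, JUNB changed by -0.30 (SE 0.09, adjusted p = 0.0329, limma), from 10.35 to 10.99 (median 10.76) starved to 10.31 to 10.62 (median 10.44) with EGF. JUN (-0.12), JUND (-0.24) and BATF3 (0.32, adjusted p = 0.0737, limma) did not pass. So 5 of the 8 genes were called, 1 higher and 4 lower, where 8.8% of all genes were called, 3.88% higher and 4.93% lower. Only FOSL1 had no overlap between groups, as had 2.54% of all genes. FOSL1, FOS and FOSL2 were called whichever of the 14 arrays was left out. FOSB was not called without starved 4 h replicate 2 of date 3 (range of its change over all left-out arrays -0.78 to -0.58). JUNB was called in only 5 of 14 such fits (-0.37 to -0.25). These left out EGF 8 h replicate 1 of date 2, EGF 4 h replicate 3 or starved 4 h replicate 3 of date 3, EGF 4 h replicate 1 of date 6 or starved 4 h replicate 2 of date 6. With these 2 groups fitted alone, FOSL2 (adjusted p = 0.0587, limma) and JUNB (adjusted p = 0.112, limma) were not called, and JUNB was not called either with arrays centred on their median (-0.25) or with all probe sets tested (adjusted p = 0.052, limma).

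**Figure D1:**
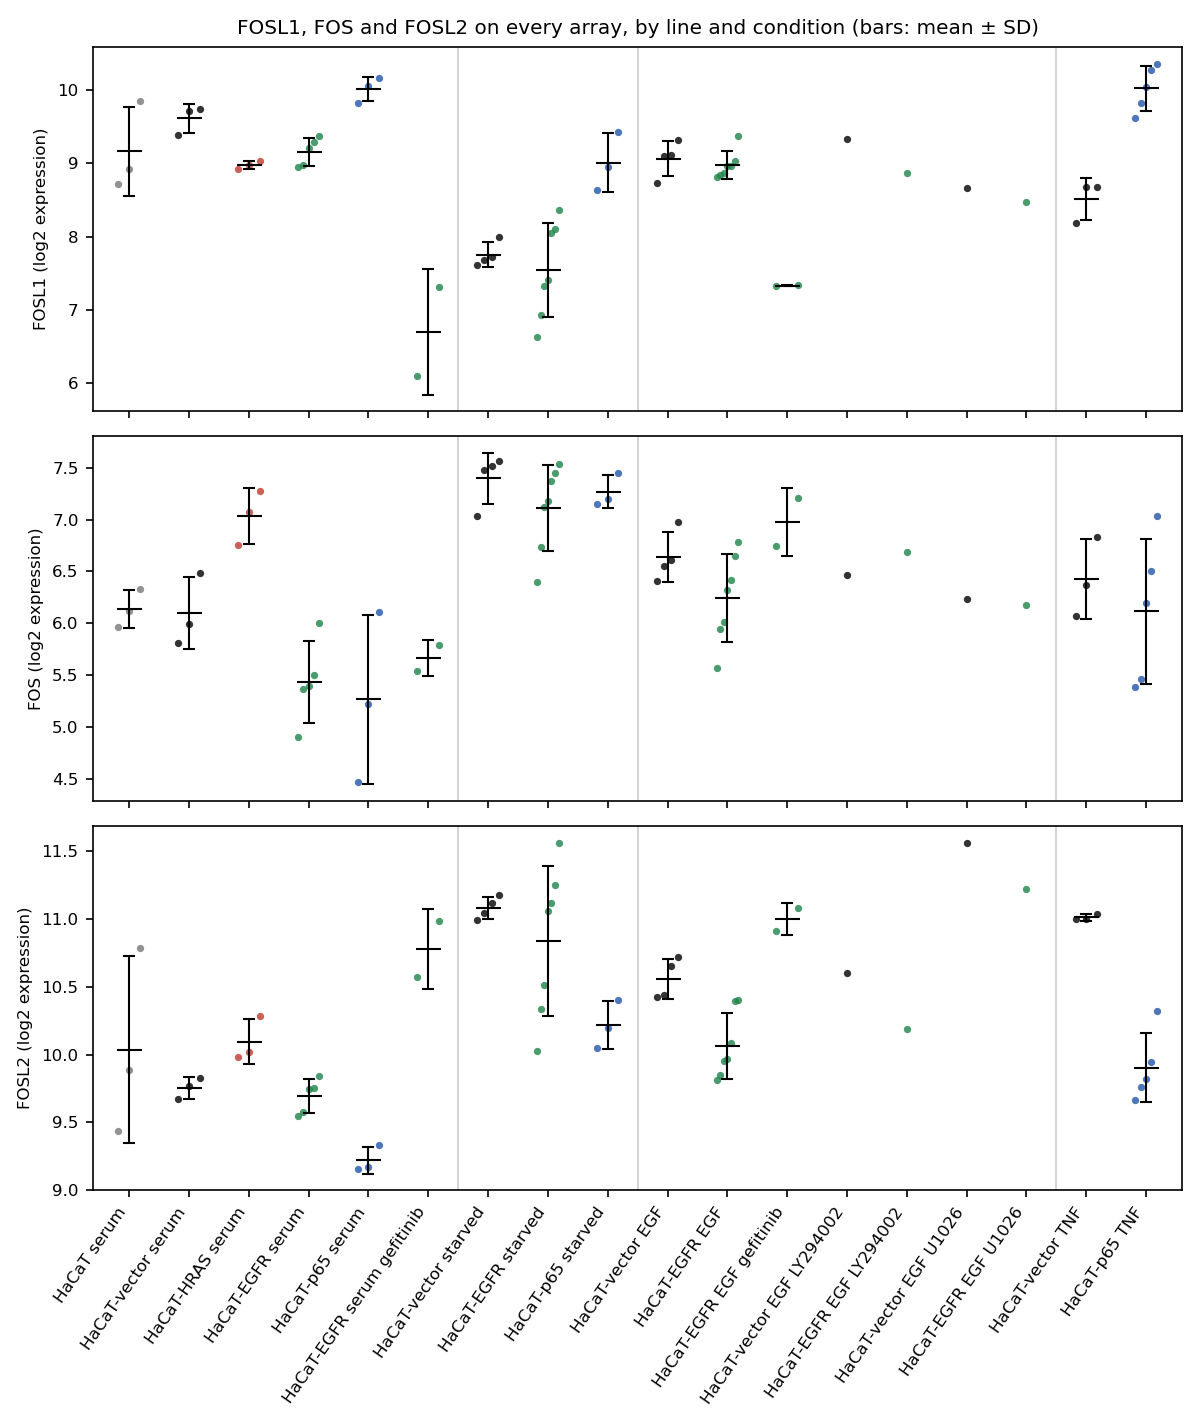
Log2 expression (vertical axes) of FOSL1, FOS and FOSL2 on every array, by line and condition (horizontal axis, grey lines divide serum, starved, EGF and TNF). Points are arrays, coloured by line, and bars are the mean ± SD where there are at least 2 arrays. FOSL1 is low in starved HaCaT-vector and HaCaT-EGFR and with gefitinib, and FOS is highest in the starved groups.

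When 4 h and 8 h were fitted apart, FOSL1 changed by 1.58 (SE 0.24, adjusted p = 4.96e-05, limma) and FOSL2 by -0.71 (SE 0.21, adjusted p = 0.0321, limma) at 4 h, 2 of the 8 genes where 5.87% of all genes were called. At 8 h, with 2 arrays per group, 0 of the 8 were called by limma (all 8 had an unadjusted p under 0.05) where 0.339% of all genes were. The changes there were 1.05 for FOSL1, -1.10 for FOS, -1.13 for FOSB, -0.93 for FOSL2 and 0.76 for BATF3 (adjusted p = 0.0969). The difference between the hours was called for 0 of the 8 (2 had an unadjusted p under 0.05, limma) and for 0% of all genes. These 2 were JUN at -0.51 and BATF3 at 0.61, and FOS stood at -0.33 and FOSL1 at -0.53. Between the starved HaCaT-EGFR arrays of 8 h and 4 h limma called 0 of the 8 (1 with an unadjusted p under 0.05, JUN at 0.34) where 0.0152% of all genes were called.

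EGF also raised FOSL1 in HaCaT-vector, whose only EGFR is the cell's own. Starved arrays read 8.00, 7.62, 7.68 and 7.72 and arrays with EGF 8.73, 9.32, 9.11 and 9.09. The groups did not overlap, and the change was 1.31 (SE 0.28, adjusted p = 0.0115, limma), or 2.48-fold. JUNB fell 1.46-fold, from 10.53, 10.43, 10.47 and 10.54 to 9.73, 10.21, 9.95 and 9.89, also without overlap (-0.55, SE 0.13, adjusted p = 0.0206, limma).

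FOS (-0.76), FOSB (-0.64), FOSL2 (-0.53) and JUN (-0.26) did not pass the test in HaCaT-vector, although no array with EGF reached the lowest starved array in any of these 4. For FOS the starved arrays read 7.03, 7.56, 7.51 and 7.48 and the EGF arrays 6.97, 6.61, 6.41 and 6.55. JUND stood at 0.03 and BATF3 at 0.06. In all, 2 of 8 genes were called where 1.01% of all genes were, and 6 of 8 had no overlap where 21.6% of all genes had none. FOSL1 was not called without EGF replicate 1 of date 5, EGF replicate 1 of date 6 or starved replicate 1 of date 6 (1.23 to 1.46 over all left-out arrays), and JUNB was not called without these or without EGF replicate 2 or starved replicate 3 of date 4 (-0.63 to -0.48).

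The EGF responses of the lines were compared directly as an interaction, which called 0 of the 8 genes (0 with an unadjusted p under 0.05, limma) and 0% of all genes. The difference, HaCaT-EGFR minus HaCaT-vector, was 0.12 for FOSL1 (95% interval -0.58 to 0.82), -0.11 for FOS (-0.90 to 0.69), -0.25 for FOSL2 (-0.83 to 0.33) and 0.25 for JUNB (-0.07 to 0.56). These intervals leave room for differences as large as some of the responses themselves.

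TNF moved FOS and FOSL1 apart in HaCaT-p65. FOSL1 rose 2.02-fold and FOS fell 2.22-fold. The starved arrays of FOSL1 read 8.63, 9.43 and 8.96 and the TNF arrays 10.04, 10.27, 10.36, 9.63 and 9.82, so the groups did not overlap (1.02, SE 0.28, adjusted p = 0.0487, limma). FOS read 7.15, 7.20 and 7.45 in starved cells and 5.39, 6.51, 5.47, 7.03 and 6.19 with TNF, again without overlap but with TNF arrays that spread over more than 1 log2 unit (-1.15, SE 0.32, adjusted p = 0.0496, limma).

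The other members stood at -0.27 (FOSB), -0.32 (FOSL2), 0.22 (JUN), 0.10 (JUNB), 0.15 (JUND) and -0.25 (BATF3) and did not pass. Thus 2 of 8 genes were called where 2.03% of all genes were, and the same 2 had no overlap, as had 8.91% of all genes. Without the array described as a control, which read 9.82 for FOSL1 and 6.19 for FOS, the changes were 1.06 (adjusted p = 0.0347, limma) and -1.16 (adjusted p = 0.0429, limma), again 2 of 8 called where 3.81% of all genes were, and the other members lay between -0.30 (FOSL2) and 0.28 (JUN). Of the 8 arrays left out singly, FOS was called without that array or TNF 4 h replicate 2 of date 3 (the one whose title has no prefix) and in no other fit (-1.36 to -0.90). FOSL1 was called without either of these or starved 8 h replicate 1 (0.83 to 1.22). Neither was called in a fit of the HaCaT-p65 starved and TNF arrays alone or with all probe sets tested (adjusted p = 0.0695 for FOS and 0.0686 for FOSL1, limma), and FOS was not called with arrays centred on their median (adjusted p = 0.054, limma) or quantile normalized (adjusted p = 0.0663, limma). At 4 h alone FOSL1 stood at 1.12 (adjusted p = 0.0982, limma) and FOS at -1.31 (adjusted p = 0.107, limma), with 0 of 8 called (2 with an unadjusted p under 0.05) where 0.445% of all genes were. Without the array described as a control these were 1.18 and -1.35, with 0 of 8 called (3 with an unadjusted p under 0.05, limma) where 1.34% of all genes were.

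In HaCaT-vector with TNF, FOS stood at -0.97 (adjusted p = 0.382, limma) and FOSL1 at 0.76 (adjusted p = 0.558, limma), which did not pass. FOS read 6.07, 6.83 and 6.37 and FOSL1 8.68, 8.18 and 8.68 with TNF, both clear of their starved ranges given above. BATF3, a subunit best known from dendritic cells and lymphocytes, read 5.30, 5.33 and 5.55 with TNF against 4.83, 4.80, 4.84 and 5.13 in starved cells (0.49, adjusted p = 0.333, limma). limma called 0 of the 8 (3 had an unadjusted p under 0.05) where 0.905% of all genes were called, and FOS, FOSL1 and BATF3 had no overlap, as had 21.5% of all genes. The interaction test of the TNF responses of HaCaT-p65 and HaCaT-vector called 0 of the 8 (1 with an unadjusted p under 0.05, limma) and 0.0101% of all genes. That 1 gene was BATF3, at -0.75 (SE 0.24, adjusted p = 0.44, limma). Without the array described as a control the interaction called 0 of the 8 (1 with an unadjusted p under 0.05, limma) and 0.0202% of all genes, with BATF3 at -0.78.

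**Figure D2:**
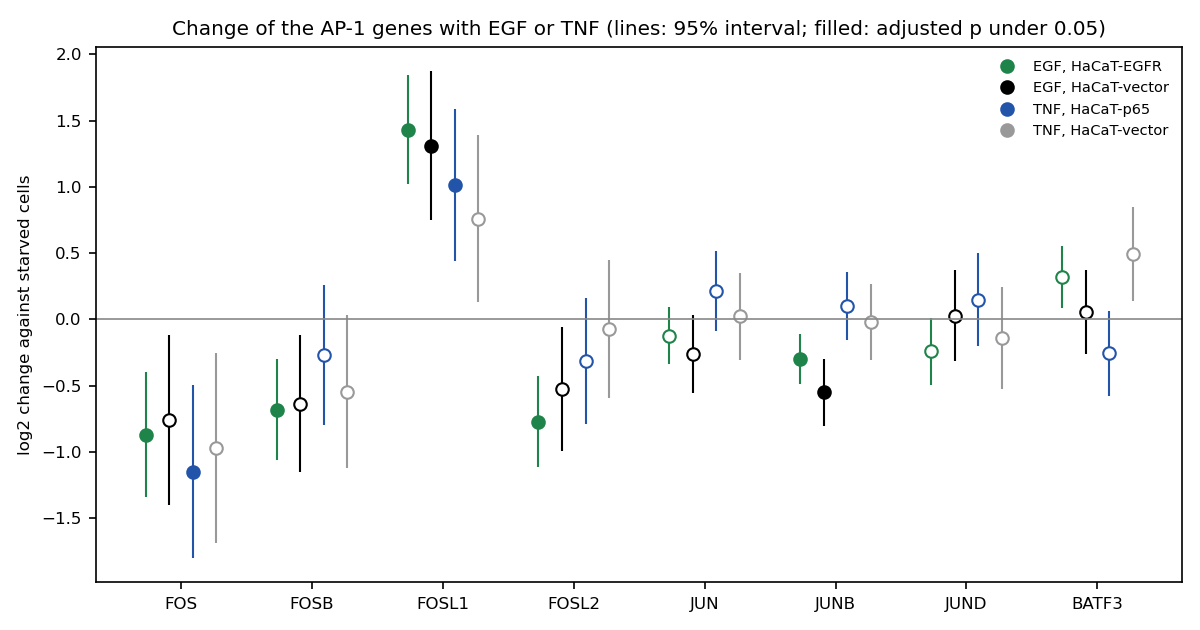
Log2 change (vertical axis) of the 8 AP-1 genes (horizontal axis) with EGF or TNF against starved cells of the same line. Points are limma estimates, filled where the adjusted p was under 0.05, and lines are 95% intervals. FOSL1 lies above 0 and FOS below 0 in all 4 comparisons, of which the 2 in HaCaT-vector share their starved arrays.

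Against starved HaCaT-EGFR cells, serum went with lower FOS, FOSL2 and JUNB and higher FOSL1. FOS fell 3.19-fold, FOSL2 2.21-fold and JUNB 1.46-fold, and FOSL1 rose 3.06-fold. This comparison shares its starved arrays with that of EGF. FOS read 6.01, 5.40 and 4.91 at 0 h, 5.50 at 4 h and 5.37 at 8 h in serum, all under the lowest starved array of 6.39 (-1.67, SE 0.37, adjusted p = 0.0087, limma). FOSL1 read 8.98, 9.30, 9.21, 9.37 and 8.95 in the same order, all above the highest starved array of 8.37 (1.61, SE 0.33, adjusted p = 0.00387, limma). FOSL2 read 9.76, 9.74, 9.58, 9.84 and 9.55 and JUNB 10.18, 10.39, 10.00, 10.25 and 10.13. The date correction set the mean of the 0 h arrays to that of the 4 h and 8 h arrays. The 0 h arrays therefore give no separate evidence of a change from starved cells.

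The change of FOSL2 was -1.15 (SE 0.27, adjusted p = 0.0129, limma), with no overlap, and that of JUNB -0.55 (SE 0.15, adjusted p = 0.0295, limma), with overlap. FOSB (-0.84), JUN (0.30), JUND (-0.35) and BATF3 (0.44) did not pass, although BATF3 too had no overlap. So 4 of 8 genes were called where 3.25% of all genes were, and 4 had no overlap where 9.76% of all genes had none, with the 0 h arrays counted. Only date 6 holds both conditions, with 2 serum and 3 starved arrays, and there the differences were -1.71 for FOS, 1.48 for FOSL1, -1.11 for FOSL2 and -0.56 for JUNB. Without the serum array of 4 h none of the 4 was called, and without that of 8 h only FOSL1 was. FOSL2 and JUNB were not called without starved 4 h replicate 1 of date 6, nor JUNB without starved 8 h of date 6. Over all left-out arrays FOS lay between -1.79 and -1.54, FOSL1 between 1.33 and 1.87, FOSL2 between -1.30 and -0.92 and JUNB between -0.67 and -0.47. No gene was called in a fit of these 2 groups alone, and JUNB not with arrays centred on their median (-0.46).

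In HaCaT-vector and HaCaT-p65 no date holds both serum and starved arrays, and these differences pass through the HaCaT-EGFR arrays. They were 1.86 for FOSL1 (SE 0.51, adjusted p = 0.0629, limma) and -1.30 for FOS in HaCaT-vector, and 1.01 for FOSL1 in HaCaT-p65, where FOS had means of 5.27 in serum and 7.27 in starved cells (SE of the difference 0.58, adjusted p = 0.104, limma). limma called 0 of 8 in either line, with 4 and 3 at an unadjusted p under 0.05, where 0.976% and 0.703% of all genes were called. FOSL2 stood at -1.33 in HaCaT-vector, and JUNB at -0.74 and -0.56.

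In serum, 1 of the 8 members was called between HaCaT-HRAS, whose mutant RAS signals without a ligand, and HaCaT-vector. As 18.2% of all genes were called there, this count does not set the members apart. The member called was FOSB. It was 1.76-fold higher in HaCaT-HRAS, reading 9.45, 9.45 and 8.68 against 8.80, 8.45 and 7.88. The groups overlapped by their nearest arrays, and the change was 0.82 (SE 0.29, adjusted p = 0.0397, limma). FOS read 6.75, 7.07 and 7.28 against 6.48, 5.81 and 6.00 without overlap, at a change of 0.94 (SE 0.35, adjusted p = 0.0622, limma). Same-numbered arrays of these 2 lines deviated together, and with the replicate number as a block both FOS (adjusted p = 0.0239, limma) and FOSB (adjusted p = 0.00182, limma) were called.

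JUN gave a different answer by probe set. The brightest read 10.26, 10.42 and 10.23 in HaCaT-HRAS against 10.06, 9.93 and 9.77, a change of 0.38 (SE 0.16, adjusted p = 0.109, limma). The other 3 were called when all probe sets were tested: the second in brightness at 1.12 (SE 0.21), the third at 0.80 (SE 0.19) and the dimmest at 0.63 (SE 0.17). HaCaT-HRAS had a mean of 11.02 ± 0.29 (SD, n = 3) on the second, against 9.90 ± 0.24 (SD, n = 3) for HaCaT-vector. All 4 probe sets had no overlap between these lines.

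FOSL1 went the other way, with 8.98, 8.93 and 9.04 in HaCaT-HRAS against 9.39, 9.71 and 9.74 (-0.63, SE 0.31, adjusted p = 0.183, limma). FOSL2 (0.34), JUNB (0.11), JUND (-0.06) and BATF3 (-0.34) did not pass. With the brightest probe sets 1 of 8 genes was called where 18.2% of all genes were, and 5 had no overlap where 35.5% of all genes had none. FOSB was not called without HaCaT-HRAS replicate 1 or 2 or HaCaT-vector replicate 2 or 3 (0.57 to 1.07), nor in a fit of these 2 groups alone (adjusted p = 0.0927, limma), in which FOS (adjusted p = 0.0163, limma) and FOSL1 (adjusted p = 0.00893, limma) were called instead. FOSB was not called either with conditions split by time (adjusted p = 0.0515, limma) or with all probe sets tested (adjusted p = 0.0547, limma). Of the markers of other cells, CDH5 of endothelium was 4.29 and LYZ of leukocytes 1.89 higher in HaCaT-HRAS. They were 1 of 3 and 1 of 5 of their lists. The mean log2 level of the endothelium list ranged from 6.23 to 6.37 against 4.78 to 4.97. Its other members, PECAM1 (-0.18) and VWF (0.12), did not pass. The mean of the leukocyte list ranged from 4.51 to 4.81 against 4.30 to 4.45. Of 5 measured basal keratinocyte markers KRT14 (-2.33), SFN (-0.89) and LAMB3 (-0.69) are named as lower. The mean of that list ranged from 10.5 to 10.9 in HaCaT-HRAS against 11.3 to 11.6 in HaCaT-vector. The part of all these markers in the FOSB result was not tested.

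**Figure D3:**
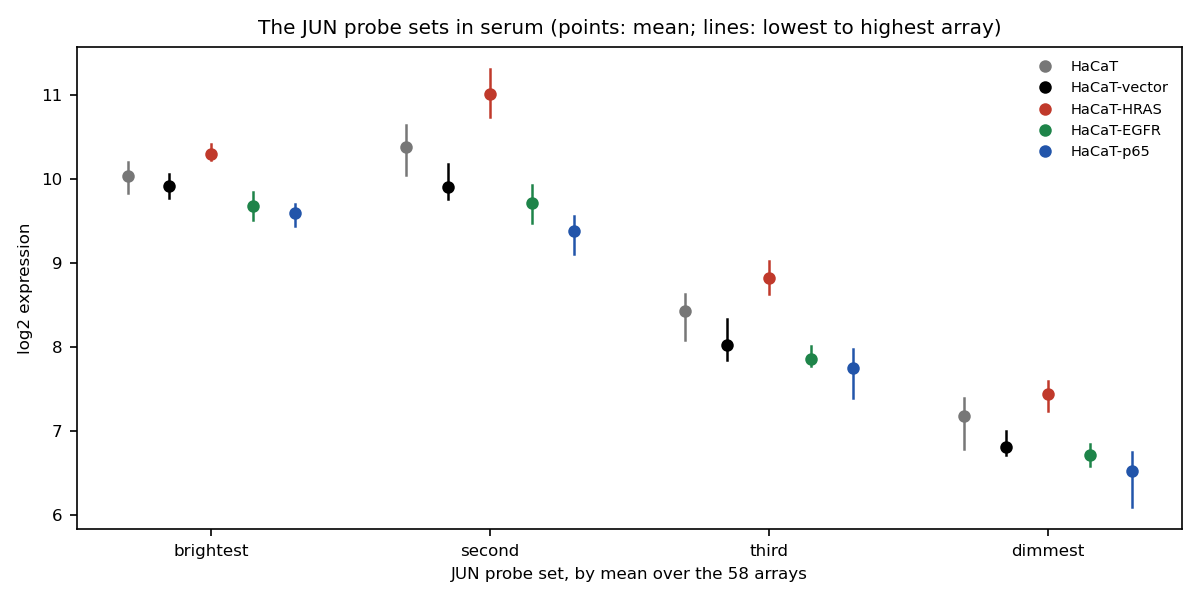
Log2 expression (vertical axis) of the 4 JUN probe sets (horizontal axis, from the brightest to the dimmest) in the serum arrays of the 5 lines. Points are means of 3 arrays (5 for HaCaT-EGFR) and lines run from the lowest to the highest array. HaCaT-HRAS is the highest line on each probe set, by 1.12 over HaCaT-vector on the second and by 0.38 on the brightest.

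Against HaCaT itself, HaCaT-HRAS stood at 0.90 for FOS (adjusted p = 0.0785, limma) and 0.68 for FOSB (adjusted p = 0.104, limma), and limma called 0 of 8 (2 with an unadjusted p under 0.05) where 17.7% of all genes were called. The arrays of HaCaT read 6.33, 6.12 and 5.97 for FOS and 8.54, 8.51 and 8.49 for FOSB, so each HaCaT-HRAS array was higher for both genes, and with JUN 3 of 8 had no overlap where 26.6% of all genes had none. Between HaCaT-vector and HaCaT limma called 0 of 8 (0 with an unadjusted p under 0.05) where 2.87% of all genes were called, and no member was without overlap, as 13.1% of all genes were.

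In HaCaT-EGFR in serum JUNB, a JUN member that keratinocytes need to restrain cytokine expression, was 1.35-fold higher than in HaCaT-vector. It read 10.18, 10.39, 10.00, 10.25 and 10.13 against 9.83, 9.82 and 9.62, without overlap (0.43, SE 0.14, adjusted p = 0.0487, limma). The 4 h and 8 h arrays are of date 6, and the date correction set their mean to that of the 0 h arrays. The change is thus that of the 6 arrays of date 1, also 0.43. The other members ranged from -0.66 (FOS) to 0.07 (BATF3), so 1 of 8 was called where 7.87% of all genes were, and JUNB and FOSL1 (-0.46) had no overlap, as had 21.6% of all genes. Same-numbered arrays deviated together here too, and with the replicate number as a block JUNB was not called (adjusted p = 0.0502, limma). It was not called either in 7 of the 8 fits that left out an array (0.33 to 0.53, the exception being HaCaT-EGFR 0 h replicate 3), without the array described as a control, with the 0 h arrays alone (0.43, the same change by construction), with only these 2 groups, with conditions split by time, or with all probe sets tested. The fibroblast marker COL3A1 was 2.24 higher in HaCaT-EGFR, 1 of 5 in its list, whose mean ranged from 5.36 to 5.50 against 4.82 to 5.09, and its part was not tested.

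HaCaT-p65 had the highest FOSL1 and the lowest FOS and FOSL2 of the lines in serum, without passing the test. FOSL1 read 9.83, 10.16 and 10.05, all above HaCaT-vector (0.40), and FOSL2 9.17, 9.16 and 9.33, all below it (-0.54, adjusted p = 0.295, limma). FOS read 6.11, 5.22 and 4.48, a spread over more than 1 log2 unit (-0.83, adjusted p = 0.199, limma). limma called 0 of 8 (2 with an unadjusted p under 0.05) where 7.18% of all genes were called, and FOSL1, FOSL2, JUN and JUND had no overlap where 22.7% of all genes had none. Against HaCaT, FOSL2 stood at -0.82 (SE 0.26, adjusted p = 0.0506, limma) and FOSL1 at 0.85 (adjusted p = 0.111, limma), with 0 of 8 called (4 with an unadjusted p under 0.05, limma) where 5.94% of all genes were. HaCaT-EGFR against HaCaT gave 0 of 8 (1 with an unadjusted p under 0.05, limma) where 3.88% were.

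Between starved HaCaT-p65 and starved HaCaT-vector FOSL1 stood at 1.25 (SE 0.43, adjusted p = 0.0826, limma). The starved HaCaT-p65 arrays of 8.63, 9.43 and 8.96 all lay above the starved HaCaT-vector arrays. FOSL2 read 10.20, 10.05 and 10.40 against 11.04, 11.18, 11.12 and 10.99 (-0.87, adjusted p = 0.172, limma). No date holds both groups, limma called 0 of 8 (2 with an unadjusted p under 0.05) where 5.3% of all genes were called, and 5 of 8 had no overlap where 40.3% of all genes had none. Starved HaCaT-EGFR against starved HaCaT-vector also gave 0 of 8 (1 with an unadjusted p under 0.05, limma) where 7.89% were called, with JUN at -0.40 (adjusted p = 0.227, limma) and FOSL1 at -0.21, and all 8 overlapped, whereas 19.7% of all genes did not.

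Gefitinib took FOSL1 down. With EGF it fell 3.13-fold, from the range of 8.82 to 9.37 to 7.34 at 4 h and 7.33 at 8 h, which lies within the starved range of 6.64 to 8.37. The change was -1.65 (SE 0.33, adjusted p = 0.00389, limma). FOSL2 read 11.08 and 10.91 with gefitinib, above every EGF array (0.93, SE 0.27, adjusted p = 0.0636, limma), and FOS read 6.74 and 7.21 (0.73, adjusted p = 0.433, limma). FOSB (0.14), JUN (-0.13), JUNB (0.03), JUND (0.10) and BATF3 (0.12) did not pass.

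So 1 of 8 genes was called where 1.81% of all genes were, and FOSL1 and FOSL2 had no overlap, as had 18.3% of all genes. FOSL1 was not called without either gefitinib array, when 1 is left (-1.70 to -1.61 over all left-out arrays). Cells with EGF and gefitinib against starved cells gave 0 of 8 (1 with an unadjusted p under 0.05, limma) and 0% of all genes. FOSL1 differed by -0.22 there, with a 95% interval from -0.88 to 0.45.

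In serum, gefitinib lowered FOSL1 5.48-fold, to 7.31 at 4 h and 6.10 at 8 h, the lowest of the 58 arrays (-2.46, SE 0.38, adjusted p = 0.000107, limma). JUN fell 1.66-fold, to 8.95 on both arrays against 9.85, 9.51, 9.68, 9.77 and 9.59 (-0.73, SE 0.20, adjusted p = 0.045, limma), and its other probe sets stood at -0.95, -0.75 and -0.62. FOSL2 read 10.57 and 10.99, above all serum arrays (1.09, SE 0.32, adjusted p = 0.0658, limma). FOS read 5.54 and 5.79 within its serum range (0.23). The serum arrays of 0 h lie on date 1, and the date correction set their mean to that of the 4 h and 8 h arrays. These changes are thus the same as those within date 6 (-2.46 for FOSL1 and -0.73 for JUN, 4 arrays in all).

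FOSB stood at -0.67, JUNB at 0.10, JUND at 0.31 and BATF3 at -0.41. Here 2 of 8 genes were called where 1.79% of all genes were, and 5 had no overlap where 33.3% of all genes had none, with the 0 h serum arrays counted. FOSL1 was not called without the 8 h gefitinib array (-1.85), and its change was -3.06 without the 4 h gefitinib array. JUN was not called in 5 of the 7 fits that left out an array (-0.82 to -0.64), called only without 0 h replicate 1 or 2, nor in a fit of these 2 groups alone (adjusted p = 0.0717, limma) or with all probe sets tested (adjusted p = 0.0715, limma). A test of the difference between the gefitinib changes in serum and with EGF, added after the data were seen, called 0 of the 8 (1 with an unadjusted p under 0.05, limma) and 0% of all genes, with -0.81 for FOSL1 (SE 0.50) and -0.60 for JUN (SE 0.26).

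**Figure D4:**
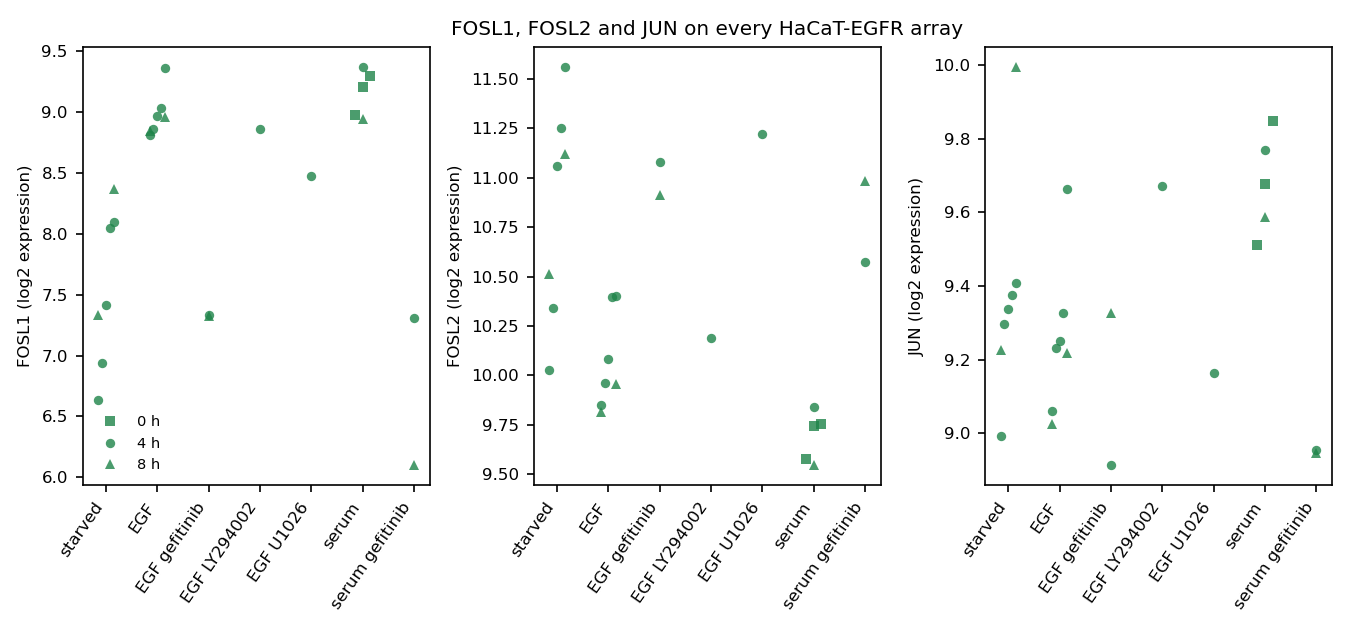
Log2 expression (vertical axes) of FOSL1, FOSL2 and JUN on every HaCaT-EGFR array, by medium and inhibitor (horizontal axis). Symbols give the hour on the label. With gefitinib FOSL1 reads 6.10 to 7.34, below all arrays with EGF or serum and no gefitinib, and FOSL2 10.57 to 11.08, above those with EGF alone or serum alone, while the U1026 array reads 11.22.

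U1026 raised FOSL2 with EGF. In HaCaT-EGFR it read 11.22 against a mean of 10.24 on the 2 EGF arrays of the same date and hour, and in HaCaT-vector 11.57 against 10.65. Both are higher than any array of their line with EGF alone. Over both lines the change was 1.08 (SE 0.27, adjusted p = 0.016, limma), or 2.12-fold. These values, like those of FOSL2 with gefitinib and serum, are of the brightest of 5 probe sets. Over the 58 arrays the others, from brighter to dimmer, had r = 0.89, 0.87, 0.44 and 0.45 with it. FOSL1 read 8.48 against 8.84 and 8.66 against 9.09 in these lines, a change of -0.45 (adjusted p = 0.609, limma), and JUNB stood at 0.33 (adjusted p = 0.27, limma).

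For U1026, 1 of 8 genes was called where 3.02% of all genes were, and the call was lost without the HaCaT-vector EGF array of date 6 (1.04 to 1.16) and in a fit of these groups alone. LY294002 gave 0 of 8 (0 with an unadjusted p under 0.05, limma) where 0.693% of all genes were called. FOSL1 differed by 0.08 with a 95% interval from -0.58 to 0.73, FOSL2 by 0.08 (-0.46 to 0.62) and FOS by 0.14 (-0.61 to 0.88). U1026 and LY294002 at the same hour differed by 1.00 in FOSL2 (0.36 to 1.64, adjusted p = 0.135, limma), and 0 of 8 were called (1 with an unadjusted p under 0.05, limma) where 1.02% of all genes were. With 1 array per line and inhibitor, the spread is taken from the other conditions.

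Over all 18 conditions FOSL1 had the widest range of the 8, with condition means from 6.70 (HaCaT-EGFR, serum with gefitinib) to 10.02 (HaCaT-p65, TNF, or 10.07 without the array described as a control). Next to the top stood HaCaT-p65 in serum (10.01), which overlapped the first, then HaCaT-vector in serum (9.62), apart from HaCaT-p65 in serum. The 8 conditions from 9.33 (HaCaT-vector, EGF with LY294002) to 8.86 (HaCaT-EGFR, EGF with LY294002), with HaCaT and HaCaT-EGFR in serum, EGF in both lines, starved HaCaT-p65 and HaCaT-HRAS among them, each overlapped their neighbour. The 3 conditions from 8.66 to 8.48, TNF and U1026 in HaCaT-vector and U1026 in HaCaT-EGFR, formed the next step, and starved HaCaT-vector (7.75), starved HaCaT-EGFR (7.55) and EGF with gefitinib (7.33) the step above the lowest. Of 17 pairs of neighbours 12 overlapped in range. In the orders of all 8 genes, each serum condition outside HaCaT-EGFR lies on date 1 alone. Its place among starved, ligand and inhibitor conditions thus rests on the HaCaT-EGFR serum arrays that link the dates. The LY294002 and U1026 conditions hold 1 array per line, so a gap beside them takes no account of their own spread.

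FOS had its highest means in starved cells of HaCaT-vector (7.40), HaCaT-p65 (7.27) and HaCaT-EGFR (7.11), followed by HaCaT-HRAS in serum (7.03) and EGF with gefitinib (6.98), each overlapping the next. Its lowest were HaCaT-EGFR in serum with gefitinib (5.67), in serum (5.44) and HaCaT-p65 in serum (5.27), also overlapping. The means of HaCaT (6.14) and HaCaT-vector (6.10) in serum lay above these. The arrays of both overlapped those of HaCaT-EGFR and HaCaT-p65 in serum without gefitinib. The comparison of these serum conditions can be made within date 1, except against serum with gefitinib, which lies on date 6. FOSL2 was highest with U1026 in HaCaT-vector (11.57) and HaCaT-EGFR (11.22) and lowest in HaCaT-p65 in serum (9.22), and that lowest condition overlapped no neighbour.

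FOSB ran from 9.20 (HaCaT-HRAS, serum) to 7.65 (HaCaT-EGFR, serum with gefitinib), JUN from 10.30 (HaCaT-HRAS, serum) to 8.95 (HaCaT-EGFR, serum with gefitinib), and JUNB from 10.74 (HaCaT-EGFR, starved) to 9.76 (HaCaT-vector, serum). JUND, a subunit known for its even expression, spanned 0.99 log2 units, from 11.76 to 10.77, on the brightest of its 4 probe sets. The others, from brighter to dimmer, had r = 0.39, 0.43 and 0.54 with it over the 58 arrays. Their ranges over these arrays, 2.29, 1.32 and 1.94, were wider than that of the brightest. Their means, 5.76, 5.60 and 5.34, were lower than its 11.06. The span of JUND is thus that of 1 probe set. BATF3 spanned 0.84, from 5.39 to 4.56, near the array medians of 4.98 to 5.24. For FOSB, JUN and JUNB 15 of 17 neighbour pairs overlapped, for FOS and JUND 14, for FOSL2 13 and for BATF3 16. Levels of different genes come from different probe sets and are not compared.

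The gene whose 18 condition means followed those of a member most closely, among 5768 genes spanning at least 1 log2 unit, was CDC42EP2 for FOSL1 (Pearson r = 0.91), ahead of PLEK2 (0.89) and ITPRIP (0.89). FOSL2 was followed by CDKN1B (0.93), EIF2AK3-DT (0.93) and CA2 (0.92), and JUN by BIN1 (0.90), SLC43A1 (0.87) and SIPA1L2 (0.86). For FOS these were HOTAIR (0.86), SRGAP3 (0.75) and COQ8A (0.75), and for FOSB EGR1 (0.73), an immediate early factor itself, IGIP (0.70) and LAMB1 (0.68). JUNB came with CA5B (0.87), CCT6B (0.87) and TRAF7 (0.86), JUND with LMTK3, ATXN1 and NKAIN2 (0.88 each) and BATF3 with SPRR1A (0.63), GADD45G (0.60) and CDK20 (0.60). The conditions share dates and the date correction, so these values describe 18 points, and 7 of the 24 genes were also among the 3 highest by Spearman's rho. Between members, FOSL1 and FOSL2 had r = -0.68, FOSL2 and JUND 0.68 and FOS and FOSB 0.64.

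The lists of AP-1 targets, relatives and upstream genes were chosen from general knowledge, but with earlier results of these data known. Their counts beside the share of all genes are therefore descriptions and no test of the lists. Of 24 measured genes known as AP-1 targets, 13 rose with EGF in HaCaT-EGFR, none fell and 11 did not pass. Among all genes 8.8% were called, and the median change was 0.46 for the targets against -0.01 over all genes. The stromelysin MMP10 rose by 2.46 (SE 0.30), the collagenase MMP1 by 2.28 (SE 0.32), MMP3 by 1.48 (SE 0.24), the chemokine CXCL8 by 0.90 (SE 0.20), TGFB1 by 0.88 (SE 0.20) and the EGFR ligand HBEGF by 0.81 (SE 0.19). With gefitinib and EGF none rose, 7 fell and 17 did not pass (1.81% of all genes called, median -0.43 against -0.02), among them MMP1 at -2.16, MMP10 at -1.87, HBEGF at -1.51 and the urokinase receptor PLAUR at -1.15. The EGF arrays of HaCaT-EGFR enter both of these comparisons. In serum gefitinib lowered 4 and raised none (1.79% of all genes called, median -0.43), with HBEGF at -2.10 and CXCL8 at -1.79. Serum against starved HaCaT-EGFR raised 5 and lowered none (3.25% of all genes called, median 0.45), CXCL8 by 1.98, PLAUR by 1.80, MMP10 by 1.67, MMP3 by 1.32 and EZR by 0.67.

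U1026 split the targets, with 4 higher (CCL2 2.29, PTGS2 1.44, PLAU 1.03, PLAUR 0.75) and 3 lower (MMP1 -1.82, MMP10 -1.67, TIMP1 -0.71), where 3.02% of all genes were called. LY294002 gave 1 higher (PLAUR 0.86) and 1 lower (SPRR3 -1.12), where 0.693% of all genes were called. EGF in HaCaT-vector raised 2 of 24 (TIMP1 0.53 and EZR 0.43, median 0.28), where 1.01% of all genes were called. TNF raised 5 of 24 in HaCaT-p65 (MMP13 1.82, PLAU 1.58, CXCL8 1.32, SPRR3 0.94 and PLAUR 0.78) and 4 in HaCaT-vector (CCL2 4.34, MMP13 3.04, CXCL8 2.44, PLAU 1.52), with none lower in either, where 2.03% and 0.905% of all genes were called. Without the array described as a control TNF raised 7 of 24 in HaCaT-p65, these 5 with CCL2 (2.11) and MMP10 (1.44), and lowered none, where 3.81% of all genes were called. In HaCaT-HRAS 9 were higher than in HaCaT-vector and 3 lower, led by MMP1 (7.90), MMP10 (2.27) and CCL2 (1.99), while KRT16 (-1.26), CCND1 (-0.38) and EZR (-0.31) were lower, where 18.2% of all genes were called. In HaCaT-p65 in serum 9 were higher and 4 lower, the latter the envelope genes IVL (-3.08) and SPRR3 (-2.16) with KRT16 (-1.23) and PTGS2 (-1.08), where 7.18% of all genes were called.

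Of 9 measured partners and relatives of AP-1, 3 passed with EGF in HaCaT-EGFR, where 8.8% of all genes were called. MAFF, a small MAF protein without an activation domain, rose by 0.53 (SE 0.12) and MAFG by 0.31 (SE 0.08), and ATF3, a stress-induced repressor, fell by 0.73 (SE 0.20). MAFF was lower with gefitinib, by -0.71 with EGF and -0.91 in serum, and higher with LY294002 (0.76), U1026 (0.67) and TNF in HaCaT-p65 (0.64, or 0.70 without the array described as a control). ATF3 was lower in serum than in starved HaCaT-EGFR (-1.07), and JDP2, a repressor that pairs with JUN, was lower in HaCaT-HRAS than in HaCaT-vector (-1.03).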

How the data were processed

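The authors summarized the arrays by fRMA, fitted condition and processing date with limma and subtracted the date coefficients, and the deposited values are log2 expression of 54675 probe sets, used as deposited. Of these, 41097 carried 1 gene symbol, 1801 several and 11777 none, by the platform annotation. For each of 19775 genes the probe set with the highest mean over the 58 arrays was kept. limma 3.58.1 in R 4.3.3 (lmFit, contrasts.fit, eBayes) fitted 18 conditions and 6 dates (35 residual degrees of freedom), which left date coefficients of at most 1.17e-08, with the Benjamini-Hochberg adjustment run across the whole gene table (threshold 0.05). The removed date effect also holds any effect of the other RNA isolation that the study's sample sheet records for date 6. Members and gene lists were chosen with earlier results of these data known. Named genes are the 8 members, EGFR, RELA and HRAS, up to 6 list members past the threshold per comparison taken by absolute change, and the 3 genes nearest each member by Pearson r. Marker genes, and CCND1, EZR, KRT16, PTGS2 and TIMP1 where they complete a count, were named after their values were seen. Replicate numbers paired samples, with every correlation of deviations over 0.1, for HaCaT-HRAS (0.191 to 0.527) and HaCaT-EGFR (0.216 to 0.529) against HaCaT-vector in serum. This is a rule on the values and not a fact of the labels. Comparisons that missed it can hold correlated pairs, as with EGF in HaCaT-EGFR (-0.181 to 0.457) and HaCaT-p65 against HaCaT-vector in serum (0.0844 to 0.584). Some genes of the lists are not reported here. Sequences are from RefSeq. The fit was tested on simulated data. Tables and plots used Python 3.11.15, numpy 2.4.6, pandas 2.3.3 and matplotlib 3.10.9. The number of arrays limits the precision.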

Additional observations from a re-analysis of the deposited data

Results flagged for a closer look

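Each of the 8 genes was screened in the 6 groups of 4 to 7 arrays for an array far from the rest, which chance gives in about 1 of 20 of the 48 tests, and 6 were found. FOS read 7.03 on starved HaCaT-vector replicate 3 of date 4, where the others read 7.48 to 7.56. FOSL1 read 9.37 on the HaCaT-EGFR array with EGF for 4 h, replicate 3 of date 3, against 8.82 to 9.03. On the starved HaCaT-EGFR array of 8 h, date 6, JUN read 9.99 against 8.99 to 9.41 and BATF3 read 4.19 against 4.68 to 4.95. BATF3 read 5.13 on starved HaCaT-vector replicate 1 of date 6 against 4.80 to 4.84. JUNB read 10.31 on the HaCaT-p65 array with TNF for 4 h, replicate 1 of date 2, against 10.58 to 10.68.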

How the results depend on the processing

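Over 192 gene and comparison pairs no direction of a called change reversed, and of 3560 values under the alternatives 3416 kept their side of the threshold, 88 lost a call and 56 gained one. Of 19 called pairs, 2 were lost under no alternative, FOS and FOSL1 with EGF in HaCaT-EGFR. The counts of the 8 genes called that changed by over 1.5 times were as follows. Without the date term they were 2 for HaCaT-HRAS against HaCaT-vector, 1 for HaCaT-p65 against HaCaT, 1 and 2 for starved HaCaT-EGFR and HaCaT-p65 against starved HaCaT-vector, 8, 4 and 5 for serum against starved in HaCaT-EGFR, HaCaT-vector and HaCaT-p65, and 2 for gefitinib with EGF. The authors had already removed the dates, so these fits keep the changes, and their SE leaves out the uncertainty of that removal. FOSL1 with serum in HaCaT-vector stayed at 1.86, with an SE of 0.27. These added calls are therefore not firmer results. With only the groups compared they were 2 for HaCaT-HRAS (1 against HaCaT), 0 for HaCaT-EGFR and 1 for HaCaT-p65 in serum, 0 for serum in HaCaT-EGFR, 3 for EGF in HaCaT-EGFR, 0 in HaCaT-p65 and 1 in HaCaT-vector for TNF, 1 for gefitinib in serum and 0 for U1026. With arrays centred on their median they were 2 for HaCaT-HRAS, 1 for TNF in HaCaT-p65 and 2 for gefitinib with EGF, and with quantile normalization 1 for HaCaT-p65 against HaCaT and 1 for TNF in HaCaT-p65. With dim probe sets left out, which removes 1 of the 8 genes, they were 2 for HaCaT-HRAS (1 against HaCaT), 1 for HaCaT-p65 against HaCaT, 1 for serum in HaCaT-vector and 2 for gefitinib with EGF, and with a variance trend and robust fit 1 for HaCaT-p65 against HaCaT. With the replicate block they were 2 for HaCaT-HRAS (2 against HaCaT), 0 for HaCaT-EGFR in serum and 1 each for serum in HaCaT-vector and HaCaT-p65. Of these, only the comparisons of HaCaT-HRAS and HaCaT-EGFR with HaCaT-vector met the rule on paired samples given above. With conditions split by time they were 0 for HaCaT-HRAS, HaCaT-EGFR in serum and TNF in HaCaT-p65, and 0 for HaCaT-EGFR in serum without the array described as a control or, added after the data were seen, with its 0 h arrays alone. With all probe sets tested, counting each gene by its brightest one, they were 0 for HaCaT-HRAS, HaCaT-EGFR in serum and TNF in HaCaT-p65 and 1 for gefitinib in serum. Smaller changes of the genes called were these. EGF in HaCaT-EGFR gained BATF3 without the date term, with arrays centred and with conditions split by time, and lost JUNB with arrays centred and with all probe sets. EGF in HaCaT-vector gained FOSL2 with only the groups compared and FOSB with the replicate block. Serum in HaCaT-EGFR lost JUNB with arrays centred and gained FOSB with the block. Gefitinib in serum gained FOSL2 without the date term and with dim probe sets left out. Except for the fits without the date term, the cause was not tested. Leaving out 1 array gave 0 to 2 for HaCaT-HRAS, 0 to 1 for HaCaT-EGFR and HaCaT-p65 in serum, 0 to 1 and 0 to 2 for HaCaT-HRAS and HaCaT-p65 against HaCaT, 0 to 1 for starved HaCaT-EGFR, 0 to 4 for serum in HaCaT-EGFR, 0 to 1 for serum in HaCaT-p65, 3 to 5 and 0 to 2 for EGF in HaCaT-EGFR and HaCaT-vector, 0 to 2 for TNF in HaCaT-p65, 0 to 1 and 0 to 2 for gefitinib with EGF and in serum, and 0 to 1 for U1026. Fits of the groups alone were not possible for starved HaCaT-p65, serum in HaCaT-vector and HaCaT-p65 and U1026 against LY294002, nor the split by time for serum in HaCaT-vector and HaCaT-p65. BATF3 lies near the array medians, which limits what its signal can show.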

Other observations

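Among 13 measured kinases and factors upstream of AP-1, 5 passed in HaCaT-HRAS against HaCaT-vector in serum, where 18.2% of all genes were called. RPS6KA3 (0.48) and MAPK9 (0.45) were higher and MRTFA (-0.73), MAPK8 (-0.64) and MAP2K2 (-0.34) lower. MRTFA, a coactivator of serum response factor, was also lower in HaCaT-EGFR (-0.75). ELK3, which binds DNA beside serum response factor, was higher in HaCaT-p65 in serum than in HaCaT-vector (0.43) and rose with EGF in HaCaT-EGFR (0.26), the single gene of this list to pass there, where 8.8% of all genes were called. limma called 0 of the 13 with gefitinib (1 with an unadjusted p under 0.05 with EGF and 1 in serum), LY294002 (2), U1026 (3) and TNF in HaCaT-p65 (3) and HaCaT-vector (1). MAF, a relative of AP-1 subunits, was lower in starved HaCaT-EGFR (-2.38) and HaCaT-p65 (-3.75) than in starved HaCaT-vector, which both comparisons share.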
